A study of Mus musculus with 18 samples.

Results

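The lysosomal proteases of bone marrow monocytes and neutrophils were followed through 10 genes, the cathepsins Ctsa, Ctsb, Ctsc, Ctsd, Ctse, Ctsh, Ctsl, Ctss and Ctsz and the asparaginyl endopeptidase legumain (Lgmn). They were chosen by symbol from the annotation of the array, out of 19938 genes with a probe set that carries their symbol alone. Each of the 10 had exactly 1 such probe set, and all 10 were among the 13387 genes tested. Ly-6C(hi) monocytes and neutrophils were sorted by flow cytometry from the marrow of C57BL/6 mice and profiled on 18 Affymetrix Mouse Gene 1.0 ST arrays. Arrays labelled Zeb2-deficient came from Zeb2(fl/fl);Mx1-Cre(tg) mice given poly(I:C), which mimics double-stranded RNA and triggers interferon, with 4 arrays per cell type. The poly(I:C) controls were Zeb2(fl/fl) mice without Cre, with 4 arrays per cell type, and each cell type had 1 array from an untreated Zeb2(fl/fl) control. Poly(I:C) was given as 2 injections of 150 µg within 48 h, and the marrow was taken 3 weeks later. Floxed Zeb2 was thus shared by all groups, Cre was carried only by the arrays labelled deficient, and what Cre and what loss of Zeb2 contributed cannot be told apart. Mx1-Cre is switched on by interferon and is not restricted to a cell type. Whether replicate arrays came from separate animals is not stated in the labels, and the p-values therefore measure only the spread between these samples, possibly a technical one.

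Most cathepsins are cysteine proteases that are made as inactive precursors, sorted to acidic endosomes and lysosomes by mannose 6-phosphate receptors, and activated there. Ctsd and Ctse are aspartic proteases, Ctsa is a serine carboxypeptidase that also shields the sialidase Neu1 and the galactosidase Glb1 in a shared complex, and legumain cuts after asparagine and processes other cathepsins. In monocytes and the cells they give rise to, these enzymes degrade engulfed material, trim the invariant chain of MHC class II and cut endosomal Toll-like receptors, whereas cathepsin C activates the serine proteases of neutrophil granules.

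Values are log2 intensities, and levels are not compared between genes, since probe sets differ in how brightly they bind. Every member lay above the 40th percentile of its array (4.28 to 4.50) on all 18 arrays. The sort was visible in its markers: the summed linear intensity of 10 Ly-6C(hi) monocyte genes was 14275 to 16372 in control monocytes and 380 to 430 in control neutrophils. The 12 mature neutrophil genes summed to 2439 to 7209 in control monocytes and 49206 to 51967 in control neutrophils. Zeb2 itself read 9.75, 9.84, 9.46 and 8.74 in monocytes labelled deficient, against 10.08, 9.88, 9.88 and 9.86 in control monocytes (-0.48 ± 0.24 SE, adjusted p = 0.272, limma). In neutrophils it read 7.72, 7.10, 7.85 and 8.25 in arrays labelled deficient, against 7.19, 6.86, 7.54 and 7.40 in controls (0.49 ± 0.24 SE, adjusted p = 0.972). Its probe set summarises the whole transcript and does not check the deletion, so directions below are for arrays labelled deficient. Deviations from the group means also fell into 2 sets of arrays. Set A held arrays 1 and 2 of each group, and set B held control arrays 4 and 5 and labelled-deficient arrays 3 and 4.

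Monocytes and neutrophils differed in nearly the whole protease set. In the poly(I:C) controls, 7 of the 10 members were higher in monocytes and 2 were lower (limma, adjusted p below 0.05), against 29.9% and 28.7% of all genes tested, or 58.6% in either direction. The arrays did not overlap for 9 of the 10, against 56.2% of all genes tested. The median difference of the members, monocytes minus neutrophils, was 1.74, and that of all genes tested was -0.077. The 9 calls held under each of the 19 alternatives tried for each gene, which left out each array in turn and changed the filter, the normalization, the variance model, the block and the arrays used.

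The cysteine cathepsins Ctsc and Ctss had the widest gaps. Ctsc, the dipeptidyl peptidase that activates granule serine proteases, read 10.40, 10.38, 10.28 and 10.48 in control monocytes, against 4.88, 5.14, 6.32 and 6.19 in control neutrophils. All 4 neutrophil arrays lay far below the monocyte arrays, and they split among themselves by array set. The difference was 4.76 ± 0.28 (SE), or 27.0-fold, with adjusted p = 1.21e-10. Control neutrophil arrays 1 and 2 stood close to the array medians (4.81 to 4.92), so the size of this gap rests in part on a low level. Ctss, which trims the invariant chain of MHC class II, read 11.07, 11.07, 10.87 and 11.01 in control monocytes, against 6.90, 6.64, 6.68 and 6.97 in control neutrophils. Both groups were tight, and the difference of 4.20 ± 0.19 (SE), or 18.4-fold, had adjusted p = 5.27e-12. Ctsb, a broad endopeptidase that also removes dipeptides, averaged 9.64 ± 0.18 in control monocytes and 7.37 ± 0.22 in control neutrophils (SD, n = 4 each). That is 4.84-fold, with adjusted p = 1.62e-08. The aminopeptidase Ctsh averaged 9.87 ± 0.067 and the carboxypeptidase Ctsz 9.0005 ± 0.13 in control monocytes, against 8.67 ± 0.17 and 7.35 ± 0.12 in control neutrophils (SD, n = 4 each). Their differences were 1.202 and 1.65, with adjusted p = 1.41e-06 and 9.78e-10. Ctsl, an endopeptidase close to Ctss in kind, was the member without a call. It read 7.15, 7.36, 7.68 and 7.38 in control monocytes, against 7.41, 7.77, 7.59 and 7.54 in control neutrophils. The ranges overlapped, and the difference was -0.19, with a 95% interval of -0.49 to 0.12 and adjusted p = 0.277.

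The carboxypeptidase Ctsa and legumain followed the cysteine cathepsins, and the aspartic proteases went the other way. Ctsa read 10.33, 10.40, 9.98 and 10.03 in control monocytes, against 7.85, 8.12, 7.56 and 7.77 in control neutrophils, a difference of 2.36 ± 0.22 (SE), or 5.14-fold (adjusted p = 4.98e-08). Lgmn read 6.499, 7.03, 6.30 and 6.52 in control monocytes, against 4.53, 5.03, 5.0005 and 4.47 in control neutrophils. The neutrophil values of Lgmn stood just above the 40th percentile of the arrays, and the difference was 1.83 ± 0.27 (SE), or 3.55-fold (adjusted p = 1.20e-05). Ctse, an aspartic protease of endosomes, read 6.58, 6.82, 7.13 and 6.90 in control monocytes, against 10.29, 9.99, 9.81 and 9.92 in control neutrophils. Every monocyte array lay below every neutrophil array, by a mean of -3.14 ± 0.21 (SE), or 8.84-fold lower (adjusted p = 5.42e-10). Ctsd, the main aspartic protease of lysosomes, read 9.34, 9.70, 9.53 and 9.74 in control monocytes, against 10.76, 10.94, 10.42 and 10.39 in control neutrophils. It was the smaller of the pair of monocyte deficits, -1.05 ± 0.21 (SE), or 2.07-fold lower (adjusted p = 4.22e-04).

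**Figure D1:**
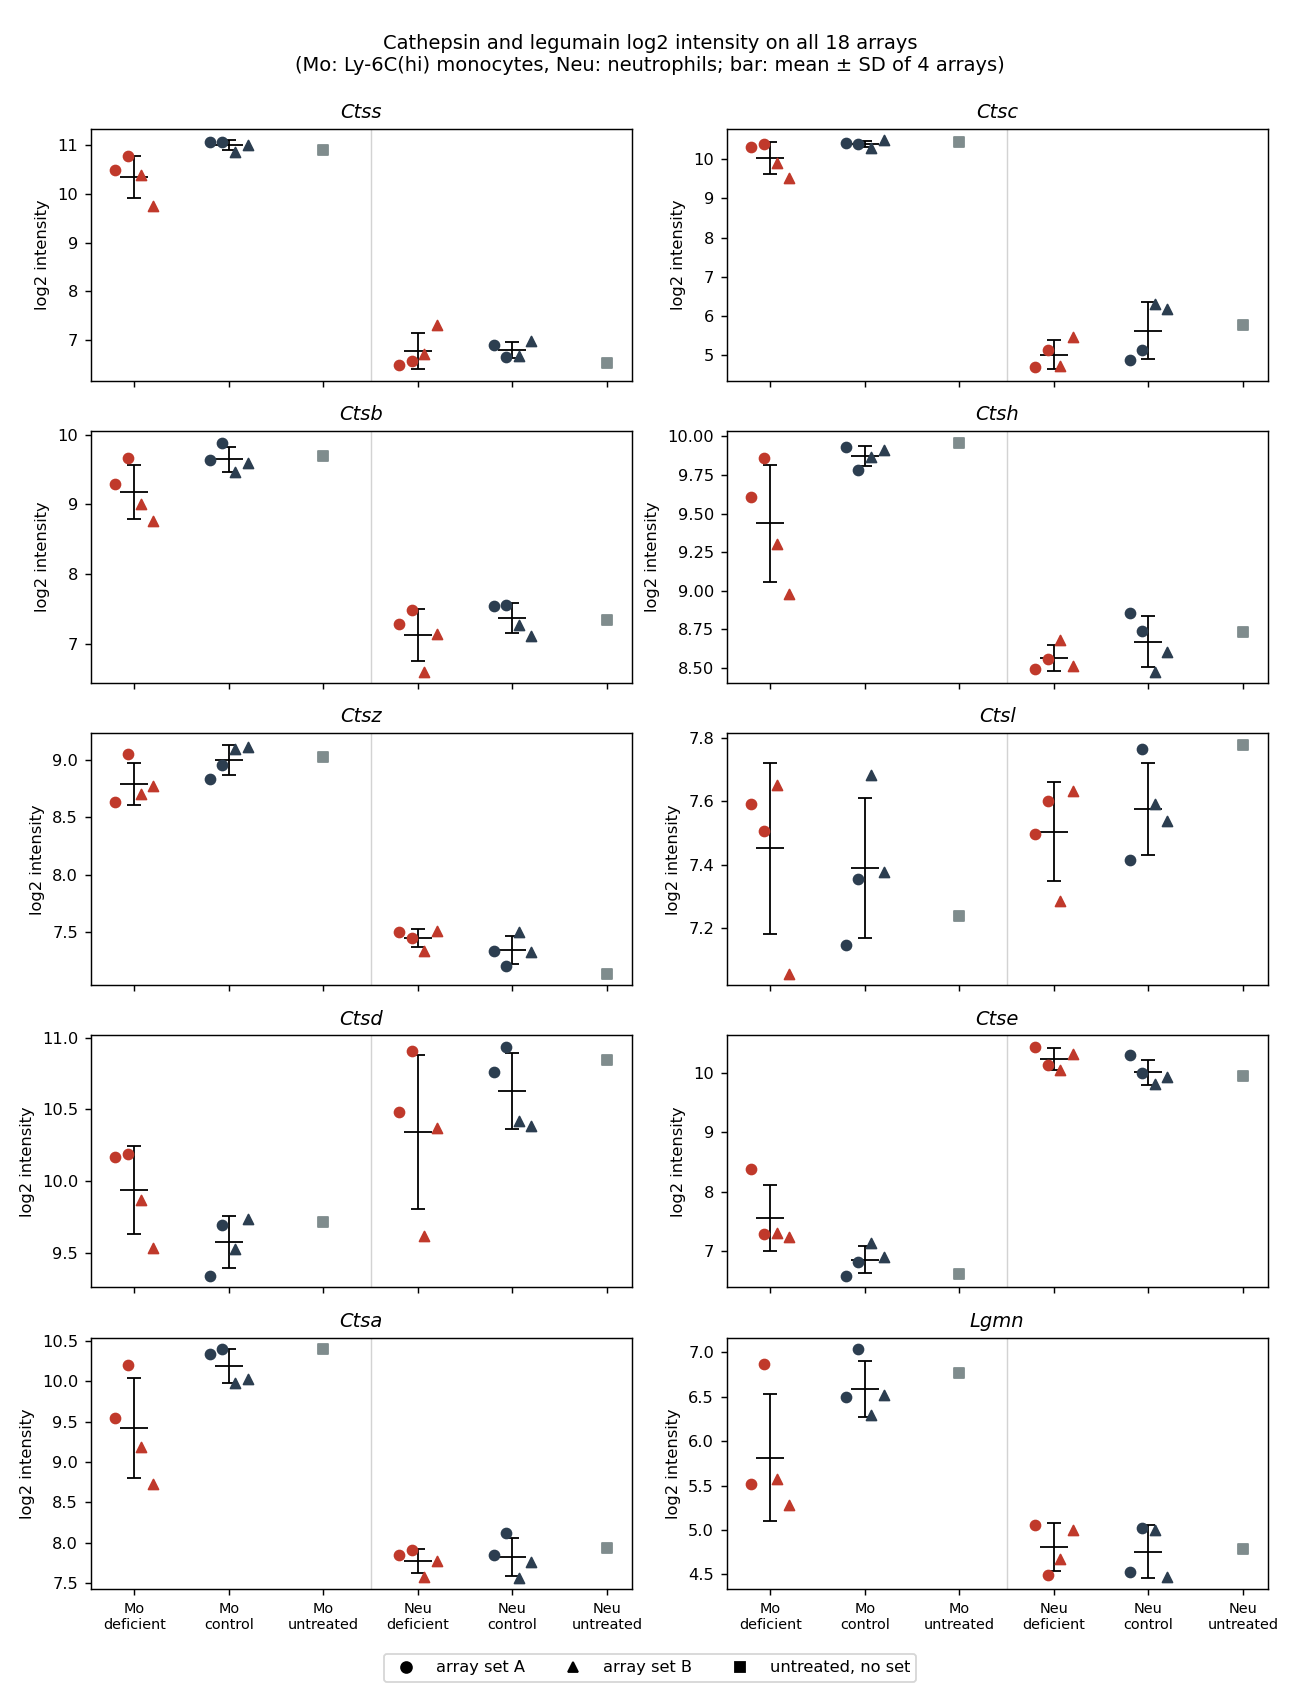
Log2 intensity of each member on every array, by group, with monocytes (Mo) left and neutrophils (Neu) right of the grey line; bars are the mean ± SD of 4 arrays, and symbols mark the array set. Ctss and Ctsc separate the cell types most widely, Ctse and Ctsd run the other way, and Ctsl overlaps.

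Promoter sequence is shown for Ctsa, Ctss and Ctsd, a member called lower, a member called lower with separated arrays and a member with no call in monocytes labelled deficient. RefSeq windows on GRCm38.p6, from 250 bases before to 50 after a gene's start, covered 7 of the 10 members (all but Ctsb, Ctse and Ctsh), as 9 windows among 32851. They were searched on both strands for TCACGTGA, the core of the CLEAR element that TFEB and its relatives bind in lysosomal genes, and for the shorter E-box CACGTG inside it. The other motifs were CACCTG, the E-box of Zeb factors, GAGGAAGT, a motif of the myeloid factor PU.1, and the interferon-stimulated response element, searched as a pair of GAAA with any 2 bases between them. TCACGTGA lay in 0.974% of all windows, CACGTG in 7.15%, CACCTG in 20.2%, GAGGAAGT in 3.20% and the interferon element in 3.44%. The lines below give the 250 bases before the start, 5′ to 3′ on the gene's strand, with these motifs in capitals: the second start of Ctsa at chr2:164833523-164833772 (plus strand), Ctsd at chr7:142387828-142388077 (minus strand) and Ctss at chr3:95526536-95526785 (plus strand).
Ctsa: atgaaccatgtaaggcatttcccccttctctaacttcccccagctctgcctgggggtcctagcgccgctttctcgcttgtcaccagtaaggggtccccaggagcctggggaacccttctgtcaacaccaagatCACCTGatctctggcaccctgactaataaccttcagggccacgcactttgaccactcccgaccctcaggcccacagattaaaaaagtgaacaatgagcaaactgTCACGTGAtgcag
Ctsd: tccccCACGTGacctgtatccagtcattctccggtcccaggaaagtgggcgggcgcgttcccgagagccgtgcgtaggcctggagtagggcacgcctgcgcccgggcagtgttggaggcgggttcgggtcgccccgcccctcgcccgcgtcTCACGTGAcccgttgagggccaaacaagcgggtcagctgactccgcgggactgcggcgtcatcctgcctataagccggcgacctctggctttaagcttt
Ctss: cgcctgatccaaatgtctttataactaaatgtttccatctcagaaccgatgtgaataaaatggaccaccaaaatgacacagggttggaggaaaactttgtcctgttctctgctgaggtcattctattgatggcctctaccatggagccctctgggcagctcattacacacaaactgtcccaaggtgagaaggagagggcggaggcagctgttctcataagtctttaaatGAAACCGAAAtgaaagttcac
Ctsa held TCACGTGA from 13 bases before its second start and again from 5 bases after it, with CACCTG 117 bases before. Ctsd held TCACGTGA 99 bases before its start and CACGTG 245 bases before it. Ctss held the interferon-stimulated response element 21 bases before its start and GAGGAAGT across the start, from 2 bases before it. Elsewhere, CACGTG lay 49 bases before 1 of the 2 starts of Lgmn and 236 bases before that of Ctsl, GAGGAAGT 151 bases before that of Ctsc, and CACCTG 228 bases before the first start of Ctsa. Ctsz and the other window of Lgmn held none of these letters. A match describes letters in a window and is not evidence of binding.

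In monocytes labelled Zeb2-deficient, Ctsa and Ctss fell and Ctse rose against the poly(I:C) controls, and the other 7 members did not pass. That is 3 of 10 members, against 7.54% of all genes tested, of which 5.11% were higher and 2.44% lower. All 3 calls were close to the threshold of 0.05. The members' median difference was -0.39, against -0.034 over all genes tested, and 6 of the 10 had an unadjusted p below 0.05. No share of all genes at that unadjusted threshold is given for the genotype differences or for their difference between cell types. The shares of genes called are for adjusted p. No member differed by 2-fold. The arrays of the groups did not overlap for 2 members, Ctss (lower) and Ctse (higher), against 3.92% and 6.12% of all genes tested in those directions.

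Ctsa, the protective carboxypeptidase of the Neu1 complex, read 9.55, 10.20, 9.18 and 8.73 in monocytes labelled deficient, against 10.33, 10.40, 9.98 and 10.03 in control monocytes. Arrays 1, 3 and 4 lay below every control, and array 2 lay among them. The means were 9.42 ± 0.62 in monocytes labelled deficient and 10.2 ± 0.21 in control monocytes (SD, n = 4 each), a fall of -0.77 ± 0.22 (SE), or 1.70-fold, with adjusted p = 0.0411. Ctss read 10.49, 10.79, 10.38 and 9.75 in monocytes labelled deficient, against 11.07, 11.07, 10.87 and 11.01 in control monocytes. All 4 lay below all controls, array 4 furthest, and the fall was -0.65 ± 0.19 (SE), or 1.57-fold, with adjusted p = 0.0476. Ctse read 8.38, 7.28, 7.30 and 7.24 in monocytes labelled deficient, against 6.58, 6.82, 7.13 and 6.90 in control monocytes. All 4 lay above all controls, with array 1 more than a log2 unit above the other three. The rise was 0.69 ± 0.21 (SE), or 1.62-fold, with adjusted p = 0.0492, and without array 1 it was 0.42 (adjusted p = 0.108).

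The other members gave no call in monocytes. Lgmn read 5.52, 6.86, 5.57 and 5.29 in monocytes labelled deficient, against 6.499, 7.03, 6.30 and 6.52 in control monocytes, a difference of -0.78 ± 0.27 (SE, adjusted p = 0.0889). As for Ctsa, arrays 1, 3 and 4 lay below every control and array 2 among them. Ctsb read 9.30, 9.66, 9.003 and 8.76 in arrays labelled deficient, against 9.64, 9.89, 9.47 and 9.59 in controls (-0.46 ± 0.20 SE, adjusted p = 0.181). Ctsh read 9.61, 9.86, 9.30 and 8.98 in arrays labelled deficient, against 9.93, 9.78, 9.87 and 9.91 in controls (-0.44 ± 0.15 SE, adjusted p = 0.0821). In both, array 2 again stood within the controls and array 4 lay lowest. Ctsc read 10.32, 10.40, 9.89 and 9.52 in arrays labelled deficient, against 10.40, 10.38, 10.28 and 10.48 in controls (-0.35 ± 0.28 SE, adjusted p = 0.546). The set A arrays lay among the controls there, and the set B arrays lay below them. Ctsz differed by -0.21 and Ctsl by 0.061, with adjusted p = 0.336 and 0.881. Ctsd read 10.17, 10.19, 9.87 and 9.53 in arrays labelled deficient, against 9.34, 9.70, 9.53 and 9.74 in controls. Arrays 1 to 3 lay above every control and array 4 among them, with a difference of 0.36 ± 0.21 (SE, adjusted p = 0.383).

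**Figure D2:**
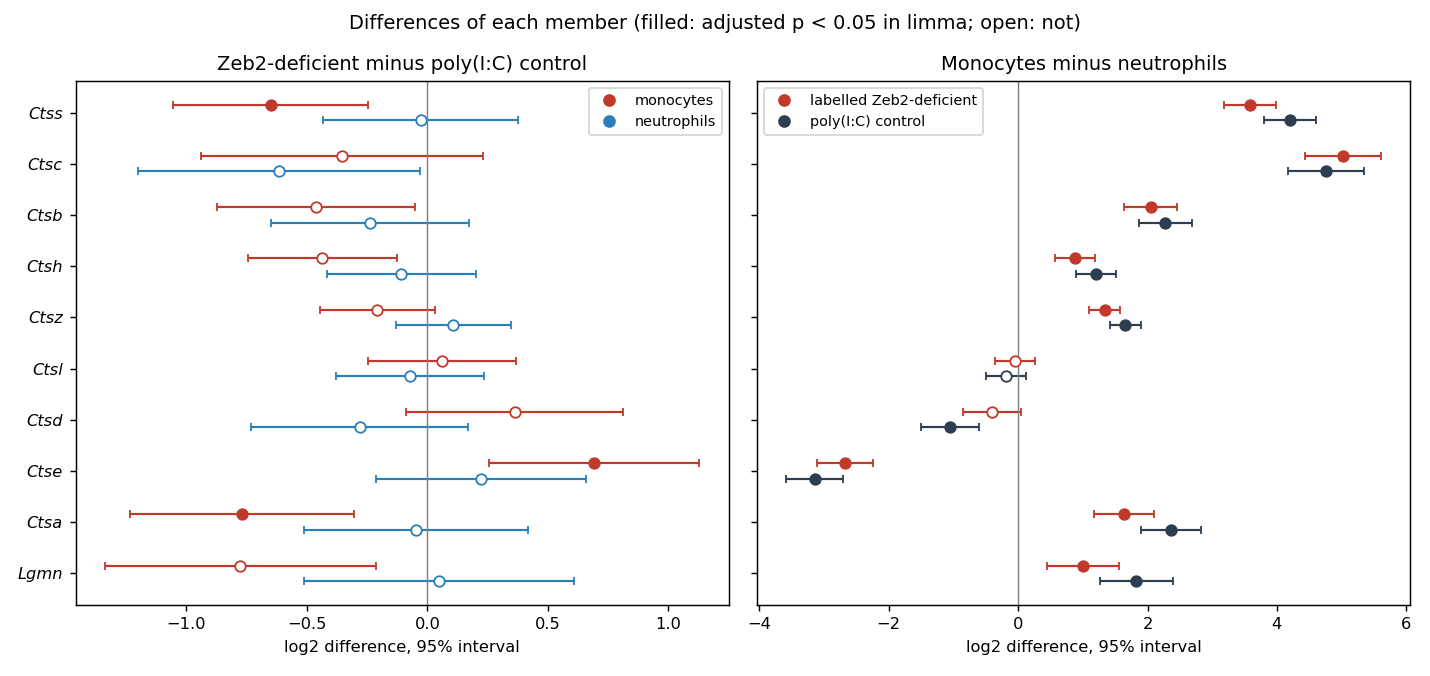
Log2 differences of each member with 95% intervals, for labelled-deficient minus control arrays in each cell type (left) and for monocytes minus neutrophils in each genotype (right); filled points had adjusted p below 0.05 in limma. Only Ctsa, Ctss and Ctse are filled on the left, all in monocytes, while on the right every member but Ctsl is filled among controls.

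Single arrays decided these calls. Array 2 of the monocytes labelled deficient lay nearest to the controls, with 1 member below and 2 above all controls and a median deviation of 0.037 from the control mean. Array 4 lay furthest, with 8 members below all controls and a median deviation of -0.87. Arrays 1 and 3 had 6 and 7 members below all controls. Without array 2, 6 members were called, Ctsa (-1.03, adjusted p = 5.42e-04), Ctss, Ctse, Ctsb (adjusted p = 0.0314), Ctsh (adjusted p = 0.00629) and Lgmn (-1.13, adjusted p = 4.36e-04), against 14.9% of all genes tested in that fit. Ctsa and Ctss lost their calls when any 1 of the other 7 arrays was left out, labelled-deficient array 1, 3 or 4 or control array 1, 2, 4 or 5. Their adjusted p was then 0.0533 to 0.147 for Ctsa and 0.0643 to 0.170 for Ctss. Ctse lost its call without labelled-deficient array 1 or 3 or control array 1, 2 or 5, with adjusted p of 0.0601 to 0.142, and kept it without the other 3 arrays. With the replicate number as a block, Ctsa kept its call (adjusted p = 0.0402), and Ctse (0.117) and Ctss (0.0998) lost theirs, against 5.12% of all genes called.

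The genotype difference was also taken within each array set. Within set A the median member differed by -0.087 and 0 of 10 passed limma (4 at an unadjusted p below 0.05), where 1.61% of all genes passed. Within set B the median was -0.66 and 5 passed, Ctsa (-1.05, adjusted p = 0.00169), Ctsb, Ctsh, Ctss and Lgmn, where 12.9% of all genes passed. With the set as a block, 6 members passed, the 3 named first together with Ctsb (adjusted p = 0.0245), Ctsh (0.0276) and Lgmn (0.0383), where 13.1% of all genes passed. The difference between the sets was itself tested, an addition made after the data were seen. It passed for 0 of 10 members in limma, where 6 of 13387 genes tested passed. The sets came from the same arrays, and with so few genes passing the test does not show that the sets agree. Members with an unadjusted p below 0.05 were 2, beside 1083 of all genes tested. They were Ctsh (-0.62 ± 0.19 SE, adjusted p = 0.417) and Ctse (-0.88 ± 0.35 SE, adjusted p = 0.544). Ctse rose in both sets, by 1.13 in set A and 0.25 in set B. Ctsd also rose in both, by 0.66 and 0.066, and Ctsl differed by 0.30 in set A and -0.18 in set B.

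**Figure D3:**
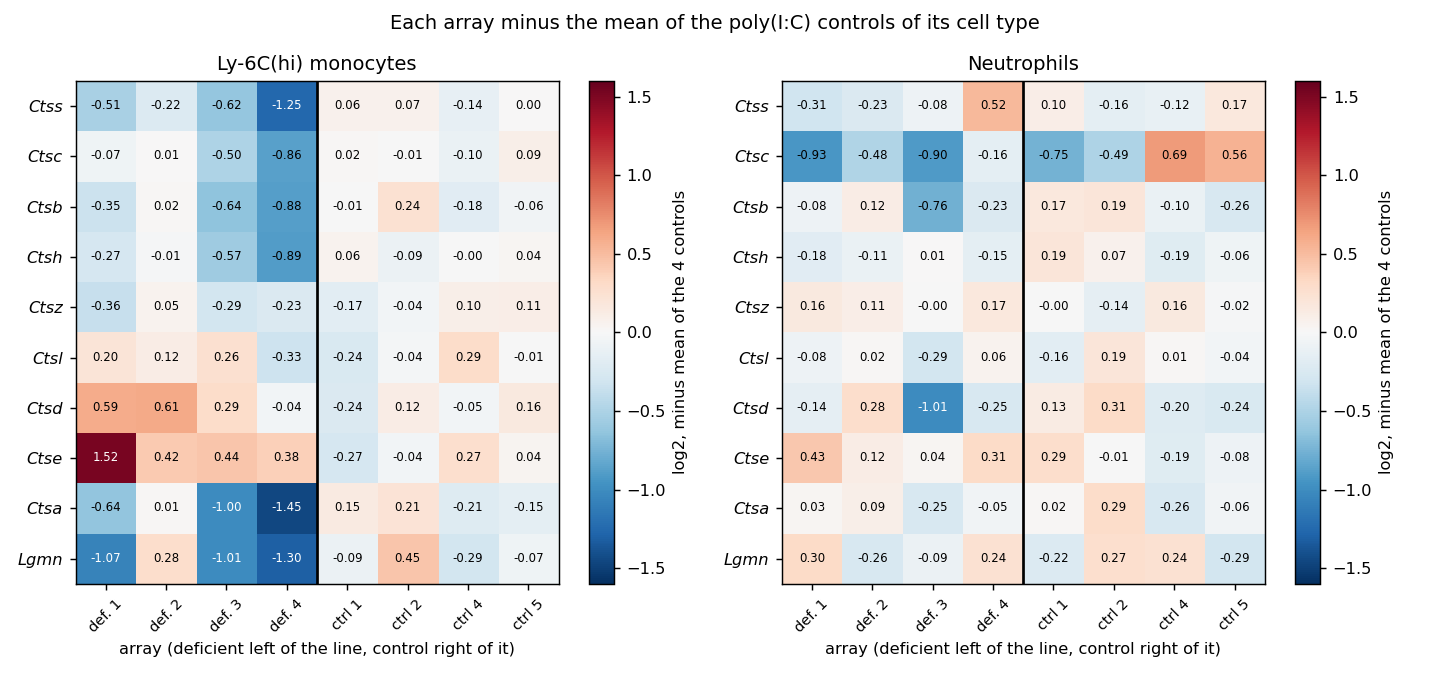
Each member on each array minus the mean of the 4 poly(I:C) controls of its cell type (log2), with labelled-deficient arrays left of the black line and controls right of it. In monocytes the blue cells deepen to -1.45 for Ctsa in array 4, array 2 has 1 member below all controls, and Ctse is red in all 4 labelled-deficient arrays.

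Genes of other cells moved in the same arrays. Of 12 mature neutrophil markers, 11 rose in monocytes labelled deficient and 0 fell, and their summed linear intensity was 15492 to 24836 there, against 2439 to 7209 in control monocytes. Ly6g, the surface marker of neutrophils, read 9.59, 8.35, 9.16 and 9.24 in monocytes labelled deficient, against 3.59, 3.59, 4.48 and 3.95 in control monocytes, with the groups far apart. The control values of Ly6g stood near or below the 40th percentile of the arrays, so that the width of this gap rests on a level near the floor. Of 8 promyelocyte markers, 7 rose and 0 fell, with sums of 4209 to 14414 in monocytes labelled deficient and 1136 to 4227 in control monocytes. Of 10 Ly-6C(hi) monocyte markers, 0 rose and 4 fell (Csf1r, Cx3cr1, Ms4a4c and Ms4a6c), with sums of 6289 to 14191 in monocytes labelled deficient and 14275 to 16372 in control monocytes. By array 1 to 4 of the monocytes labelled deficient, the promyelocyte sums were 10480, 4209, 12649 and 14414, the neutrophil sums 24836, 15492, 22835 and 21286, and the monocyte sums 10044, 14191, 8573 and 6289. Array 2, nearest to the controls for the cathepsins, had the lowest promyelocyte and neutrophil sums and the highest monocyte sum, and array 4, furthest from them, had the highest promyelocyte and lowest monocyte sum. Control monocytes split by array set. By control array 1, 2, 4 and 5, the promyelocyte sums were 1234, 1136, 4227 and 2579, and the neutrophil sums 2439, 2549, 7209 and 4808. Both lists summed higher in the set B controls. In monocytes labelled deficient, all 12, 8 and 10 genes of these lists lay above the 40th percentile on every array, and in control monocytes 8 of the 12 neutrophil genes did. In the marker lists of 7 other cell types, Vcam1, Siglecf, Hdc, Kit, Nkg7 and Tfrc rose and Mrc1, Cd209a and Flt3 fell (these and the 4 monocyte markers are named after their values were seen). The T and NK cell list summed to 380 to 2140 in monocytes labelled deficient and 144 to 342 in control monocytes, with Cd3d, Cd3g, Cd4, Klrb1c and Ncr1 at or under the 40th percentile on all these arrays. Of its 5 tested genes only Nkg7 was called. The list's median log2 intensity per array was 3.67 to 4.05 in monocytes labelled deficient, against 3.75 to 3.94 in control monocytes. The part of these genes in the cathepsin differences was not tested, and in sorted bulk samples fewer cells of a type and less RNA per cell cannot be told apart.

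The members did not move as a single block within monocytes. Over the 9 monocyte arrays, Ctsa and Ctsb correlated at 0.98, Ctsc and Ctsh at 0.97, and Ctsa, Ctsh and Ctss at 0.95 with each other. Ctse ran against them, at -0.63 with Lgmn and -0.52 with Ctsa, and Ctsd stood apart from Ctsa at -0.061. With Ctsd and Ctsl, Ctse correlated at 0.69 and 0.52. Among the 9 neutrophil arrays, Ctsb and Ctsd correlated at 0.97 and Ctsa and Ctsd at 0.81, while Ctsa and Ctss gave -0.25. These are descriptions over arrays that share their groups and array sets. Spread in monocytes labelled deficient was wider for the members (median SD 0.40) than over all genes tested (0.21), and widest for Lgmn (0.71).

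Neutrophils labelled deficient showed no called change in any member. In limma 0 of 10 passed, against 0.120% of all genes tested, and 1 had an unadjusted p below 0.05. Arrays of the groups overlapped for all 10 members, while 3.43% of all genes did not overlap. The member with the small unadjusted p, Ctsc, read 4.70, 5.15, 4.73 and 5.47 in neutrophils labelled deficient, against 4.88, 5.14, 6.32 and 6.19 in control neutrophils, a difference of -0.62 ± 0.28 (SE, adjusted p = 0.962). Control arrays 4 and 5 lay above all 6 other arrays, and control arrays 1 and 2 lay among those labelled deficient. The lowest of these values stood close to the array medians (4.81 to 4.92), which limits the size of the Ctsc difference. Among control neutrophils, Ctsc read higher in the arrays of set B by 1.24 (adjusted p = 0.0166), where 62 of 13387 genes tested passed. It was the only member whose control arrays differed by set in either cell type, and in control monocytes 52 genes passed. The sets were found from deviations of these same arrays, so the p-value is not an independent check of a set difference. The genotype difference was -1.15 in set B (adjusted p = 0.0927) and -0.083 in set A. These did not differ past the threshold (-1.07 ± 0.30 SE, adjusted p = 0.456), where 3 of all genes tested passed.

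The remaining neutrophil members differed by -0.28 to 0.22. Ctsd read 10.48, 10.91, 9.62 and 10.37 in neutrophils labelled deficient, against 10.76, 10.94, 10.42 and 10.39 in control neutrophils (-0.28 ± 0.21 SE, adjusted p = 0.999). Array 3 lay below the rest. Ctse read 10.43, 10.12, 10.04 and 10.31 in arrays labelled deficient, against 10.29, 9.99, 9.81 and 9.92 in controls (0.22 ± 0.21 SE). The ranges overlapped, with a 95% interval of -0.21 to 0.66. For Ctsa and Ctss, lower in monocytes, the neutrophil differences were -0.045 (-0.51 to 0.42) and -0.028 (-0.43 to 0.38).

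Whether the change differed between the cell types was tested directly, monocyte change minus neutrophil change. In limma 0 of 10 members passed, against 2.68% of all genes tested, and 4 had an unadjusted p below 0.05. These were Lgmn (-0.83 ± 0.38 SE, adjusted p = 0.344), Ctsa (-0.72 ± 0.31 SE, adjusted p = 0.306), Ctss (-0.62 ± 0.27 SE, adjusted p = 0.317) and Ctsd (0.64 ± 0.30 SE, adjusted p = 0.363). Blocked on array set, Ctsa passed (adjusted p = 0.0483), where 5.44% of all genes passed. Ctsa (-1.05, adjusted p = 0.0227) and Ctsh (-0.81, adjusted p = 0.0382) passed within set B, where 731 of 13387 genes tested did. In set A, 0 members passed, where 72 genes did. Without monocyte array 2 labelled deficient, Ctsa (-0.98, adjusted p = 0.0164) and Lgmn (-1.18, adjusted p = 0.00772) passed, where 6.75% of all genes did.

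Between the cell types labelled deficient, the pattern of the controls was largely present, with 8 of 10 members called, 7 higher in monocytes and 1 lower, against 62.1% of all genes tested in either direction. Arrays did not overlap for 8 members, against 50.7% of all genes. The monocyte excess was 3.58 for Ctss, 1.64 for Ctsa and 1.004 for Lgmn, beside 4.20, 2.36 and 1.83 among the controls. Ctse was lower in monocytes by -2.68, beside -3.14 among the controls. Ctsd lost its call, at -0.41 ± 0.21 (SE, adjusted p = 0.106). Within set A it passed (-0.52, adjusted p = 0.0155), and within set B it did not (-0.30, adjusted p = 0.243). It also passed with the replicate number as a block (adjusted p = 0.0492), with the set as a block (adjusted p = 0.0327), after quantile normalization (-0.78, adjusted p = 0.00387) and without neutrophil array 3 labelled deficient (-0.65, adjusted p = 0.00574). These comparisons share arrays with the genotype comparisons, and the change between them is the difference of changes given above.

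Partners and substrates of the members moved in several directions in monocytes. Neu1 and Glb1, held in the complex with Ctsa, gave no call, at 0.22 and 0.18 (adjusted p = 0.456 and 0.550). Of the granule serine proteases that Ctsc activates, 5 of 10 were tested, and 3 rose while 0 fell. Elane, neutrophil elastase, read 10.94, 9.28, 11.44 and 11.56 in monocytes labelled deficient, against 7.08, 6.64, 9.78 and 8.96 in control monocytes (2.69 ± 0.58 SE, adjusted p = 0.00707). Array 2 labelled deficient lay below a control of set B, and the other three above all controls. Prtn3, proteinase 3, rose by 2.36 and Ctsg, cathepsin G, by 2.67 (adjusted p = 0.00306 and 0.00185). These 3 genes are promyelocyte markers too, and Ctsc itself had no call in those arrays.

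Of 9 inhibitors of cathepsins tested, 4 were higher and 0 lower in monocytes labelled deficient, beside 5.11% higher and 2.44% lower among all genes tested. Their median was 0.29, against -0.034 over all genes. The stefin Stfa3, a cytosolic inhibitor of cysteine cathepsins, read 8.35, 6.32, 8.02 and 7.84 in monocytes labelled deficient, against 2.57, 3.06, 2.48 and 3.31 in control monocytes (4.78 ± 0.33 SE, adjusted p = 7.69e-08). All controls lay below the 40th percentile, and array 2 labelled deficient was the lowest of its group. Stfa2 rose by 3.10, and its control monocytes also lay below that percentile, so that the size of either stefin difference rests on a level near the floor of the arrays. Probe sets of near-identical stefins were not told apart. Serpinb1a, an inhibitor of granule serine proteases, rose by 2.16 (adjusted p = 9.53e-05), and Cst7, cystatin F, which restrains Ctsc and other cathepsins, rose by 1.35 (adjusted p = 0.0249). Cst7 lost its call without labelled-deficient array 1, 3 or 4 or control array 1, 2 or 5, with adjusted p up to 0.101. Cst3, the secreted cystatin C, read 11.28, 11.50, 11.22 and 11.01 in monocytes labelled deficient, against 11.49, 11.63, 11.56 and 11.65 in control monocytes (-0.33 ± 0.10 SE, adjusted p = 0.0590). Array 2 lay among the controls and the other three below them. Cstb differed by -0.23 (adjusted p = 0.247). Among controls, Stfa3, Stfa2 and Serpinb1a were lower in monocytes than in neutrophils, by -7.20, -5.26 and -2.57, and Cst7 was higher by 1.11. The neutrophil and promyelocyte markers given above rose in the same monocyte arrays as the inhibitors and granule proteases, and their part in these results was not tested.

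**Figure D4:**
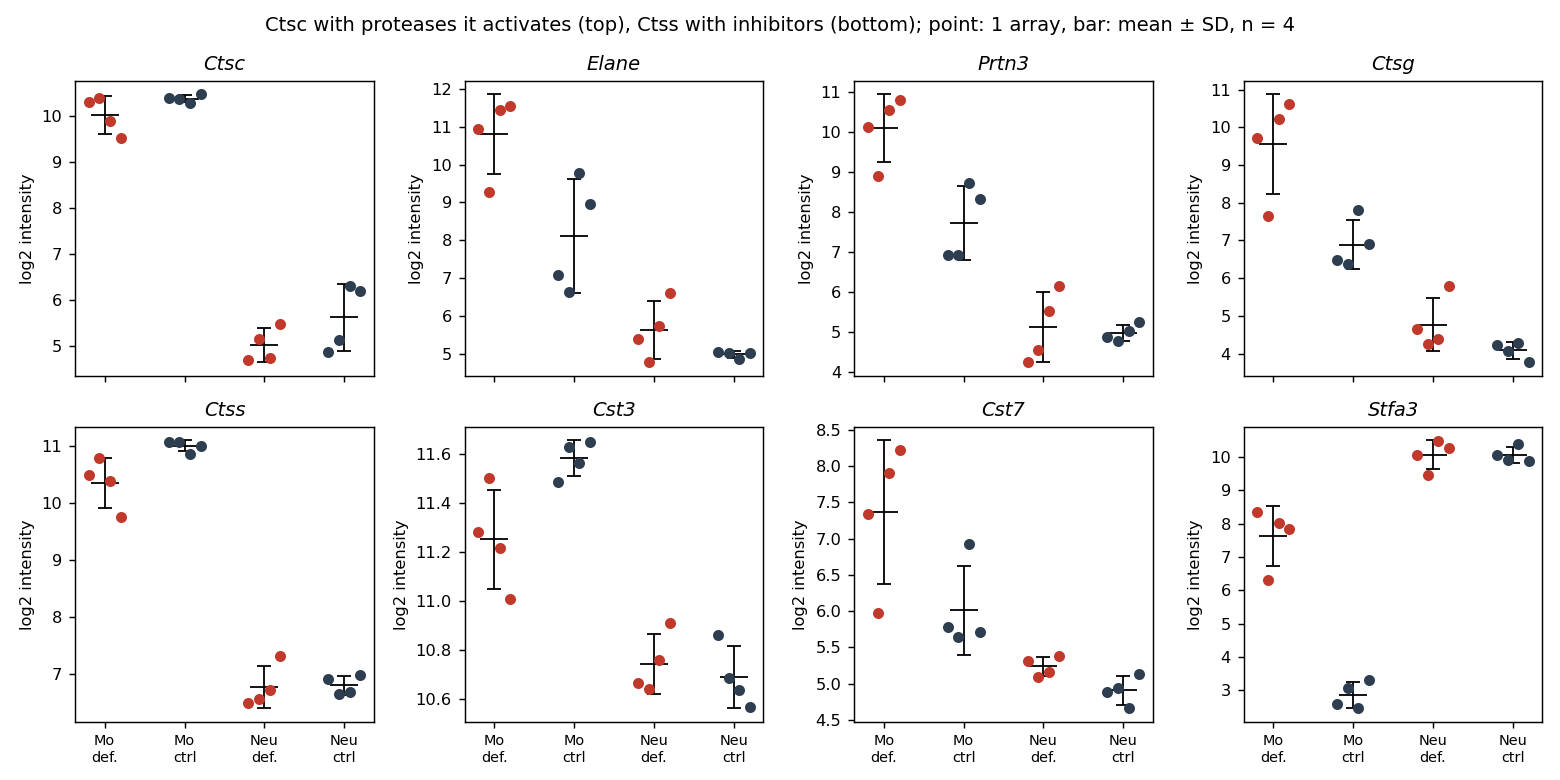
Log2 intensity of Ctsc with granule proteases it activates (top) and of Ctss with inhibitors (bottom), by group, as 1 point per array with mean ± SD (n = 4). Elane, Prtn3, Ctsg, Cst7 and Stfa3 average higher in monocytes labelled deficient than in control monocytes, and array 2 is the lowest labelled-deficient point of each.

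Calls in the other lysosomal lists in monocytes ran from 0 of 8 regulators to 2 of 10 peptidases, where 7.54% of all genes tested were called. Of 10 other lysosomal peptidases, 0 rose and 2 fell, the carboxypeptidases Scpep1 (-1.05 ± 0.24 SE, adjusted p = 0.0104) and Prcp (-0.79 ± 0.23 SE, adjusted p = 0.0400). Scpep1 kept its call without each array in turn, and Prcp kept it only without labelled-deficient array 2, with adjusted p up to 0.152 without any 1 of the other 7. Of 22 glycosidases, lipases and activators, 1 rose, the sulfatase Arsb (1.15, adjusted p = 5.15e-04), and 2 fell. These were the acid lipase Lipa (-0.87, adjusted p = 0.0136, or 0.0673 when blocked on replicate number) and the ceramidase Asah1 (-0.53, adjusted p = 0.0286, or 0.0904 with that block). Lipa lost its call without labelled-deficient array 4 (adjusted p = 0.0511), and Asah1 without any 1 array but labelled-deficient array 2 (adjusted p up to 0.107). Of 19 membrane and sorting genes, 2 rose and 0 fell. Cd63, a tetraspanin of lysosomes and granules, read 10.14, 9.29, 11.03 and 11.24 in monocytes labelled deficient, against 5.70, 5.45, 9.46 and 8.48 in control monocytes (3.15 ± 0.65 SE, adjusted p = 0.00482). Its controls split by array set, and array 2 labelled deficient lay below control array 4. Igf2r, the larger mannose 6-phosphate receptor, read 6.04, 5.67, 6.44 and 6.38 in monocytes labelled deficient, against 4.32, 4.34, 4.43 and 4.63 in control monocytes (1.70 ± 0.17 SE, adjusted p = 4.69e-06). The groups did not overlap. Among controls, Igf2r was lower in monocytes than in neutrophils (-2.003).

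Of 15 subunits of the vacuolar proton pump, which acidifies lysosomes, 1 rose and 0 fell in monocytes, Atp6ap2 (0.71, adjusted p = 0.0125). Its adjusted p was 0.0517 with the replicate number as a block and 0.0575 without labelled-deficient array 3. Of 8 regulators of lysosomal genes, 0 were called in limma and 1 had an unadjusted p below 0.05. The regulators Tfeb, Tfe3, Mitf and Tfec differed by -0.28, -0.28, -0.46 and 0.15 (adjusted p = 0.394, 0.372, 0.132 and 0.765). Of 13 genes of MHC class II presentation and endosomal Toll-like receptors, 1 rose and 1 fell, with a median of -0.37. Tlr7, a sensor of single-stranded RNA that endosomal proteases cut, read 6.41, 7.56, 6.82 and 5.92 in monocytes labelled deficient, against 7.62, 8.27, 7.79 and 8.0003 in control monocytes (-1.24 ± 0.25 SE, adjusted p = 0.00461). All 4 lay below the controls. Tlr3 rose by 0.30 near the 40th percentile (adjusted p = 0.0370, or 0.142 when blocked on replicate number). It lost its call without labelled-deficient array 1, 3 or 4 or control array 1 or 2 (adjusted p up to 0.123). The invariant chain Cd74, the substrate of Ctss, read 7.85, 8.53, 8.43 and 8.11 in monocytes labelled deficient, against 8.55, 8.90, 8.99 and 8.67 in control monocytes (-0.55 ± 0.26 SE, adjusted p = 0.248). The groups did not overlap, with array 1 lowest. The reductase Ifi30 differed by -0.31 (adjusted p = 0.380). In neutrophils 0 genes of these 8 lists were called in limma, and 7 had an unadjusted p below 0.05.

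Several of these monocyte calls ended when limma was fitted to only the arrays of the groups compared. They were Elane (adjusted p = 0.0572), Cd63 (0.0610), Cst7, Lipa, Scpep1, Prcp, Asah1, Atp6ap2 and Tlr3, the last 7 with adjusted p of 0.0683 to 0.131.

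The untreated arrays were set beside the poly(I:C) controls taken 3 weeks after injection. For 9 of 10 members in monocytes and 7 of 10 in neutrophils, the untreated array lay within the range of the 4 poly(I:C) controls. The other members lay 0.0135 to 0.114 outside it. No share of all genes tested is given beside these counts, so they cannot be judged against one. Control Ctsh reached 9.93 in monocytes, beside 9.96 in the untreated array, and control Ctsl reached 7.77 in neutrophils, beside 7.78. In neutrophils Ctss was 6.64 to 6.97 in poly(I:C) controls and 6.53 in the untreated array, and Ctsz was 7.21 to 7.51 and 7.14. With 1 untreated array per cell type there is no replicate check and no test.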

How the data were processed

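Sorted monocytes and neutrophils were measured on 18 arrays. The deposited values are log2 intensities and RMA is the tool that the submitters' processing notes name for the authors' normalization. Its version is not given in the sources used here. Of 30177 probe sets, 21789 carried a single gene symbol, and the probe set with the highest mean stood for a gene with several. A gene was tested if it lay above the 40th percentile of the array on at least 4 of 18 arrays, which left 13387. Nothing was renormalized for the values reported. A group-means model over all 18 arrays (6 groups, 12 residual degrees of freedom) was fitted with limma 3.58.1 in R 4.3.3, with a variance trend, two-sided tests and Benjamini-Hochberg adjustment over all genes tested at 0.05. The script was tested on simulated data.

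The members and gene lists were chosen with earlier results of these data known. The text names all members, a fixed set of partner genes, up to 3 called genes per list with the smallest p, the 3 genes most like each called member, and Ly6g, Mmp9, Ccr2 and Fn1 among markers. Arrays with the same title number were checked for pairing through their deviations from the group means. Genotypes shared 3 numbers per cell type, with correlations of 0.290 to 0.428 in monocytes and 0.183 to 0.378 in neutrophils. Arrays of the same set with other numbers correlated too, at 0.127 to 0.348 and 0.156 to 0.275. The sets were found from these deviations: pairs of arrays correlated at 0.0196 to 0.428 within a set and at -0.344 to -0.0357 between sets. Their origin is not given by the labels. The alternatives were other filters, quantile normalization, other variance models, the mean of a gene's probe sets, blocks for the number or the set, each set alone, only the groups compared, and each array left out in turn. The number of arrays limits the precision.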

Additional observations from a re-analysis of the deposited data

Results flagged for a closer look

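Of 40 sets of 4 arrays, 1 for each member in each group with replicates, 1 held an array far from the others. Chance gives about 1 in 20. Ctse in array 1 of the monocytes labelled deficient read 8.38, and the other three read 7.28, 7.30 and 7.24. Its gap to the nearest array was 0.950 of the range of the group, above Dixon's critical value for 4 samples. Without that array, the difference from control monocytes was 0.42 (limma, adjusted p = 0.108), against 0.69 (adjusted p = 0.0492) with it.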

How the results depend on the processing

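Over the 50 member results, 952 of 1030 alternatives kept the direction and the side of the threshold, 33 lost a call, 19 gained one and 26 turned the sign of a difference that was not called. For 41 partner results these numbers were 670 of 776, 77, 27 and 2. Genes called by limma for genotype in monocytes numbered 1010. They were 500 with only the groups compared, 1748 with the set as a block, 215 in set A, 1724 in set B and 620 to 2001 with 1 array left out (621 without labelled-deficient array 3, 620 without 4 and 2001 without 2). In neutrophils 16 were called, and 9, 27 and 3 with only the groups compared, the set block and set A, and 8 to 17 with 1 array left out (8 without labelled-deficient array 1, 9 without control array 4). For the difference between cell types 359 were called, and 728, 72 and 731 with the set block, set A and set B, and 245 to 904 with 1 array left out (904 without monocyte array 2 labelled deficient). With the replicate number as a block, these counts were 685, 11 and 407, and 7936 and 8445 between control and between labelled-deficient cell types. That block ended the calls of Ctse and Ctss and gained Ctsd between the labelled-deficient cell types, and changed no other member's call.

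Signs turned only for differences without a call. For genotype in monocytes, Ctsl was -0.0095 with the replicate block, -0.18 in set B and -0.021 to 0.19 with 1 array left out. In neutrophils, Ctsa was 0.0039 with the replicate block, 0.0075 in set B and -0.13 to 0.053 with 1 array left out. Ctss was 0.048, 0.19 and -0.21 to 0.067 likewise. Lgmn was -0.0012 with that block, -0.0024 in set A and -0.047 to 0.15 with 1 array left out, and Ctsh was 0.058 in set B. The difference between cell types was 0.15 for Ctsh in set A, -0.057 for Ctse and -0.072 for Ctsl in set B. Ctsl between labelled-deficient cell types was 0.0011 in set A and -0.12 to 0.080 with 1 array left out. Tfec in monocytes was -0.21 in set A and -0.017 to 0.27 with 1 array left out. In limma, Ctsa, Ctss and Ctse had adjusted p = 0.0514, 0.0607 and 0.0629 with no filter. With only the groups compared they had 0.139, 0.0772 and 0.159, and after quantile normalization 0.0402, 0.0660 and 0.0652. The fit without a filter tested more genes, and the fit to the groups compared took the spread from fewer arrays. What these or other differences between the fits contributed was not tested.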

Other observations

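Between control monocytes and control neutrophils, 29.9% of all genes tested were higher in monocytes and 28.7% lower, and the lysosomal lists are set beside these shares. Of 10 other lysosomal peptidases, 9 were higher in monocytes and 0 lower, with a median difference of 1.44. Of 13 genes of MHC class II presentation and endosomal Toll-like receptors, 10 were higher and 0 lower, with a median of 2.01, and Ifi30 was higher by 4.63 and Cd74 by 3.69. The 9 inhibitors were split, with 4 higher and 5 lower. Of 15 subunits of the proton pump, 2 were higher and 4 lower, with a median of 0.014, a smaller share than among all genes. Of 22 glycosidases, lipases and activators, 14 were higher and 2 lower. Of 8 regulators, 2 were higher and 1 lower, also a smaller share. Tfec was higher in monocytes by 4.03 and Mitf by 0.75, and Tfec lay below the 40th percentile in all control neutrophils, so that the size of its difference rests on a level near the floor of the arrays.

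Likeness was taken as Pearson's r over 18 arrays after the mean of each cell type was subtracted, as a description of arrays that share groups and sets. The genes most like Ctsa were Mfap3, Il6ra and Ssh2, at 0.97, 0.97 and 0.96. Those most like Ctss were Cd68, Ldlrad3 and Tab2, at 0.92, 0.90 and 0.90. Those most like Ctse were Dsp, Rab7b and Mpzl3, at 0.87, 0.84 and 0.84. In monocytes labelled deficient, Dsp averaged 1.30, Rab7b 1.41 and Mpzl3 0.997 above control monocytes. Genotype was not removed before the likeness was taken, so these differences were part of the choice and are no separate result. Array 1 labelled deficient, where Ctse stood apart, was the highest monocyte array for each of them (6.62, 6.92 and 5.65). The genes were chosen for likeness to Ctse over these same arrays, so that peak is no separate result either. Mpzl3 lay below the 40th percentile in all control monocytes, which limits the size of its difference in the same way. Dsp, at 4.36, 4.38, 4.68 and 4.59 in control monocytes, stood near that percentile.

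The other marker genes named by rule gave Mmp9 2.39 higher in monocytes labelled deficient than in control monocytes (limma, adjusted p = 1.44e-05). Ccr2 differed by -0.78 and Fn1 by -0.61 (adjusted p = 0.0557 and 0.0865), and the lysosomal glycoprotein Cd68 by -0.50 (adjusted p = 0.141).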
